A study of Rattus norvegicus with 16 samples.

Results

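The nicotinic acetylcholine receptor of skeletal muscle is described here through its 5 subunit genes, Chrna1, Chrnb1, Chrnd, Chrne and Chrng, taken by gene symbol from the 17147 genes of the deposited table. All 5 were found, and all 5 were among the 11658 genes with enough fragments to be tested. Transcripts were measured by RNA sequencing in the supraspinatus, a muscle of the rotator cuff, of Sprague Dawley rats. There were 4 groups of 4 libraries: unoperated muscle (0 days), and muscle taken 10, 30 or 60 days after the supraspinatus had been torn through its full thickness on both sides and the suprascapular nerve, which supplies it, had been cut away. Tear and neurectomy were always given together and the controls had no operation, so the effects of each, and of surgery itself, cannot be told apart. The labels give neither age nor sex, and do not say that the libraries of a group came from separate rats, so p-values measure the spread between these libraries only.

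The receptor is a pentamer that opens when acetylcholine released by the motor nerve binds at its alpha subunits, and it is built from alpha, beta and delta chains together with either gamma or epsilon. Fetal muscle uses the gamma subunit (Chrng) and adult endplates the epsilon subunit (Chrne). In innervated adult fibres the genes are transcribed mainly by nuclei under the endplate, electrical activity represses them elsewhere, and loss of the nerve is known to bring back transcription along the fibre, including that of the fetal subunit. Their promoters are known for E-boxes, bound by the myogenic factors MyoD and myogenin, and some for the N-box, bound by Ets factors at synaptic nuclei.

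The upstream sequences of 4 of the genes are shown because these genes span the responses described below, from the fetal subunit to the adult one. Each is the 250 bases before the annotated start in RefSeq GRCr8, 5′ to 3′ on the gene's own strand, with E-boxes (CANNTG) and N-boxes (CCGGAA or its complement) in capitals. The windows are chr9:95325734-95325983 on the plus strand for Chrng, chr3:78877354-78877603 on the minus strand for Chrna1, chr9:95310066-95310315 on the plus strand for Chrnd and chr10:55834155-55834404 on the minus strand for Chrne.
Chrng: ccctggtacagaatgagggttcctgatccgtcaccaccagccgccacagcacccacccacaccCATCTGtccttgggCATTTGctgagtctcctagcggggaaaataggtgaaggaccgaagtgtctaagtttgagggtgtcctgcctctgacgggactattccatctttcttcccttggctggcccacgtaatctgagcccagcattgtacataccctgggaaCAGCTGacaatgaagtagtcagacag
Chrna1: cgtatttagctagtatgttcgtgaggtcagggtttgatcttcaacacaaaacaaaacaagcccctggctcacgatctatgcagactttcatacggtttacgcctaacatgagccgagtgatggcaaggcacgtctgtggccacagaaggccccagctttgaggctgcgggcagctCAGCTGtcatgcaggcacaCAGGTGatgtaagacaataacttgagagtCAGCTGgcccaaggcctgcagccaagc
Chrnd: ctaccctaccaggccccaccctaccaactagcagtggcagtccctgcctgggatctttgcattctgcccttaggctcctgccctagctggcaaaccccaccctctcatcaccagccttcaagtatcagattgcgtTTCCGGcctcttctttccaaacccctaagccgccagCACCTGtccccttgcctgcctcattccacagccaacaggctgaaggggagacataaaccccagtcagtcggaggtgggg
Chrne: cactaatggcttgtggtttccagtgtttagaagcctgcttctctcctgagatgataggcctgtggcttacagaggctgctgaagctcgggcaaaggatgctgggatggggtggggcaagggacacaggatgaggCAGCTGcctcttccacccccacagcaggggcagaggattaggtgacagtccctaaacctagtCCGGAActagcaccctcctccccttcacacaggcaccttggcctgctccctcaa

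Both strands were searched for each motif. Chrng and Chrna1 had 3 E-boxes each, as did Chrnb1, whose window is chr10:55015108-55015357 on the minus strand. Chrnd and Chrne had 1 each. At least 1 E-box was present in 65.5% of 33469 promoters of this length, and as many as 3 in 11.5%. The CAGCTG form, which is one kind of E-box, occurred 2 times in Chrna1, once in Chrnb1, Chrne and Chrng and not in the Chrnd window, a form that 4007 of the 33469 promoters held. An N-box was found upstream of Chrne, 54 to 49 bases before the start, and of Chrnd on the opposite strand, 115 to 110 bases before it. Of all promoters, 12.6% held an N-box. These matches are descriptions of letters and were not tested for function. In the same assembly Chrng is the next gene after Chrnd on chromosome 9, Chrnb1 and Chrne lie on chromosome 10 with 51 protein-coding genes between them, and Chrna1 is on chromosome 3.

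Library totals ran from 17.2 to 39.9 M fragments (M, mega), with all 4 of the 60-day libraries, at 17.2 to 22.4 M, below the others. The floor of detection, taken as 3 fragments, ran from 0.0752 to 0.175 CPM (fragments of a gene per 1 M of the library), and every member lay above it in every library. CPM below are scaled by TMM factors, which averaged 0.763, 1.20, 1.08 and 1.01 at 0, 10, 30 and 60 days. Scaling by library totals in place of TMM raised the median change over all genes against 0 days, in log2 units, by 0.66, 0.49 and 0.41 at 10, 30 and 60 days, and shifted it by -0.16, -0.087 and -0.25 for 30 against 10, 60 against 30 and 60 against 10 days.

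The tissue label was checked against 9 transcripts of muscle fibres, among them Ckm and Acta1. Their summed level was 233942 to 255647 CPM in unoperated muscle, then 51286 to 56487, 94694 to 147745 and 137804 to 151137 CPM at 10, 30 and 60 days, and each was detected. Against 0 days 9 of 9 were lower at 10 days, 7 at 30 days and 6 at 60 days, when 1 was higher. The subunit transcripts went the other way. The share of all genes called lower against 0 days was not computed, so whether these counts exceed it cannot be said. In whole muscle, fewer cells of a type and less RNA per cell cannot be told apart.

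Transcripts of all 5 subunits were higher at 10 and 30 days after injury than in unoperated muscle, by amounts that differed widely between them. In fold change the fetal gamma subunit showed the largest rise at both times, followed by alpha and delta, with beta and the adult epsilon subunit last. By 60 days alpha, beta, delta and gamma had fallen far from their earlier levels, whereas epsilon did not pass the test for any difference between the injured groups. Together the 5 genes took 0.0111% ± 0.00125 of all fragments in unoperated muscle (SD, n = 4), then 0.281% ± 0.0420, 0.187% ± 0.0880 and 0.0258% ± 0.00536 at 10, 30 and 60 days.

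**Figure D1:**
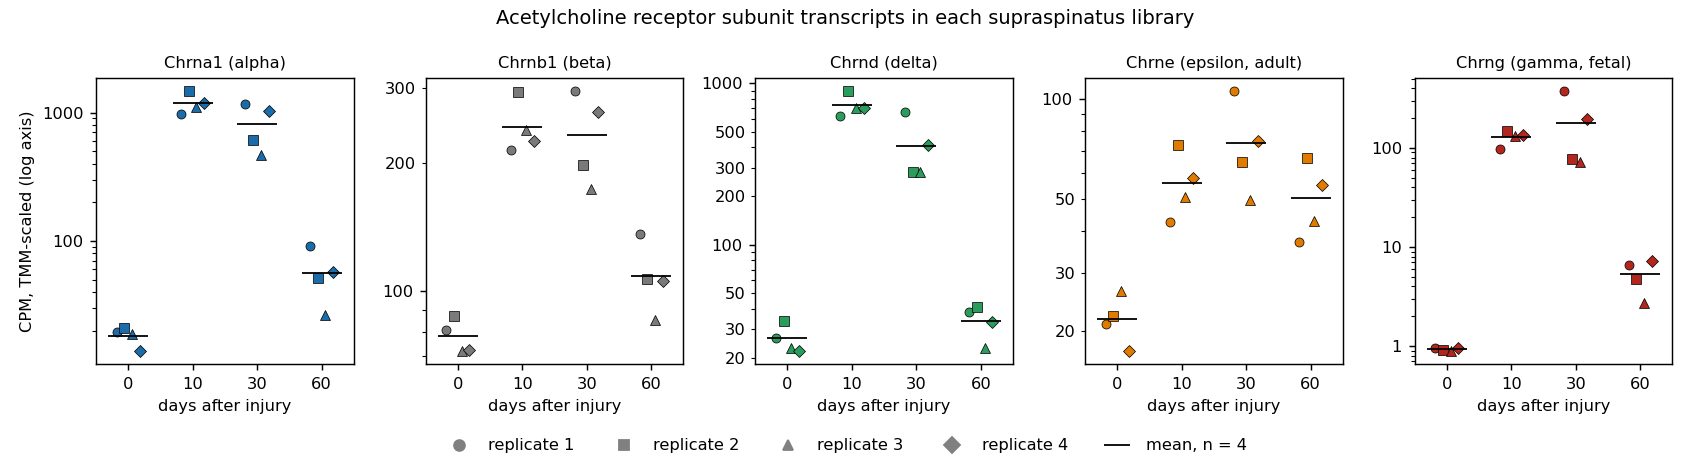
Level of each subunit transcript in each library, in TMM-scaled CPM on log axes that differ between panels, against days after injury (0 is unoperated). Points are libraries and lines are means of 4. All 5 subunits lie above their 0-day libraries at 10 and 30 days, and Chrng spans 71.8 to 372 CPM at 30 days.

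Chrng encodes gamma, the subunit of the fetal receptor. At 0 days it stood at 0.956, 0.917, 0.892 and 0.958 CPM in replicates 1 to 4, from 17, 25, 20 and 20 fragments, whose exact 95% Poisson limits (counting error only) run from 9.90 to 36.9 over the 4 libraries. At 10 days it stood at 98.0, 150, 132 and 135 CPM, at 30 days at 372, 77.1, 71.8 and 195 CPM, and at 60 days at 6.64, 4.71, 2.75 and 7.24 CPM. Thus the injured libraries all exceeded the unoperated ones, those of 60 days lay between, and 30 days was the most uneven group, its highest library 5.18 times its lowest. The log2 fold change against 0 days was 7.11 ± 0.59 (SE) at 10 days, 7.58 ± 0.59 at 30 days and 2.54 ± 0.62 at 60 days, with adjusted p-values of 4.99e-08, 3.89e-08 and 0.00265 (edgeR quasi-likelihood test, Benjamini-Hochberg over all genes tested). These ranked 19th, 6th and 126th from the highest of 11658 genes. The 60-day difference missed the threshold in limma-voom, at 2.44 with an adjusted p of 0.0769, and passed in the other alternatives run. From 30 to 60 days Chrng fell by 5.05 ± 0.49 on the log2 scale (adjusted p 8.21e-06 in edgeR), while 30 against 10 days gave 0.47 ± 0.39 (adjusted p 0.339). Without replicate 1 of 30 days, the highest library, the change was 6.94 for 30 against 0 days, -4.40 for 60 against 30 days and -0.17 for 30 against 10 days, the last again not called.

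Chrna1 encodes the alpha subunit, which carries the main part of the acetylcholine binding site. Its level was 19.7, 20.8, 19.0 and 13.9 CPM at 0 days and 980, 1461, 1105 and 1176 CPM at 10 days. At 30 days it was 1161, 616, 465 and 1030 CPM, and at 60 days 91.6, 51.3, 26.5 and 57.5 CPM. No injured library overlapped with the unoperated ones, and the 60-day libraries stood well below those of 10 and 30 days. The log2 fold change against 0 days was 6.01 ± 0.39, 5.48 ± 0.38 and 1.63 ± 0.33 in time order (edgeR adjusted p 4.61e-09, 1.23e-08 and 0.000631). From 30 to 60 days it fell by 3.85 ± 0.35 (edgeR adjusted p 4.85e-06), and 30 against 10 days gave -0.53 ± 0.31 (adjusted p 0.175).

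Chrnd encodes delta, which is present in both receptor forms. It was measured at 26.5, 33.7, 22.9 and 21.9 CPM at 0 days and 628, 889, 699 and 707 CPM at 10 days. It then stood at 663, 281, 283 and 415 CPM at 30 days, and 38.4, 40.8, 22.8 and 33.2 CPM at 60 days. The 10-day and 30-day libraries were all above the unoperated range, and the 60-day libraries overlapped with it. Rises of 4.80 ± 0.29 and 3.96 ± 0.28 on the log2 scale at 10 and 30 days passed the test (edgeR adjusted p 2.50e-09 and 1.51e-08). At 60 days the value was 0.36 ± 0.26 with an adjusted p of 0.236 in edgeR, or 0.77 with an adjusted p of 0.0242 when libraries were scaled by their totals. Chrnd was also the one member called between 30 and 10 days, lower by 0.83 ± 0.25 on the log2 scale (edgeR adjusted p 0.0121), although replicate 1 of 30 days, at 663 CPM, lay inside the 10-day range.

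Chrnb1 encodes the beta subunit, through which rapsyn tethers the receptor. It stood at 80.7, 87.1, 72.0 and 72.5 CPM at 0 days and 215, 294, 239 and 225 CPM at 10 days. Its level was 295, 198, 174 and 264 CPM at 30 days, and 136, 107, 85.3 and 106 CPM at 60 days. The groups of 10 and 30 days overlapped with each other but not with 0 days, and at 60 days replicate 3 fell inside the unoperated range. Log2 fold changes against 0 days were 1.64 ± 0.17, 1.57 ± 0.17 and 0.47 ± 0.16 (edgeR adjusted p 3.91e-07, 7.77e-07 and 0.0211). Without replicate 1 of 60 days the last was 0.34 and no longer passed (edgeR adjusted p 0.0806).

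Chrne encodes epsilon, the subunit of the adult endplate receptor. Its level was 21.0, 22.3, 26.4 and 17.4 CPM at 0 days and 42.8, 72.6, 50.6 and 58.0 CPM at 10 days. It was 105, 64.6, 49.8 and 74.7 CPM at 30 days, and 37.1, 66.7, 42.8 and 55.1 CPM at 60 days. All injured libraries were above all unoperated ones, and the 3 injured groups overlapped with one another. The rise was 1.36 ± 0.23, 1.76 ± 0.24 and 1.21 ± 0.23 on the log2 scale at 10, 30 and 60 days (edgeR adjusted p 0.000108, 1.08e-05 and 0.000426). Between the injured groups the values were 0.40 ± 0.23 for 30 against 10 days, -0.55 ± 0.23 for 60 against 30 days and -0.15 ± 0.23 for 60 against 10 days (edgeR adjusted p 0.160, 0.0948 and 0.582). The first became a call at 0.56 (adjusted p 0.0483) and the second at -0.68 (adjusted p 0.0328) with the L or R that ends each library's title as a covariate, whose meaning is not stated. The second also passed without replicate 3 of 30 days, at -0.69 (edgeR adjusted p 0.0349). Chrne overlaps Gp1ba and C10h17orf107 in the RefSeq annotation, the latter not analysed here, and since the strandedness of the counting is not stated, reads of these genes cannot be told apart where they overlap. Gp1ba itself averaged 0.413 CPM at 0 days and 1.12 CPM at 60 days. Chrnb1 overlaps Zbtb4, not analysed here.

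**Figure D2:**
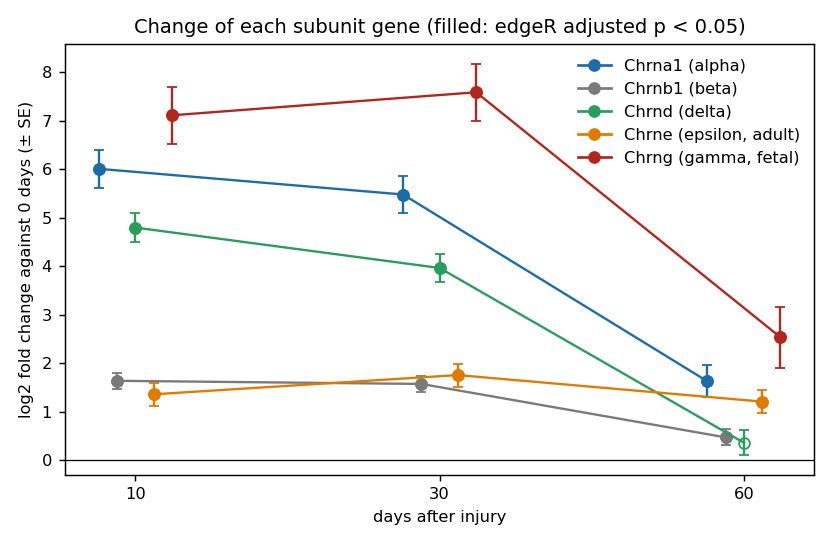
Log2 fold change of each subunit against 0 days with its standard error, at 10, 30 and 60 days, from the edgeR fit over 16 libraries. Filled points had an adjusted p under 0.05. Chrng, at 7.11 and 7.58, is highest at 10 and 30 days, and the open point is Chrnd at 60 days, 0.36.

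The members' calls were read against all genes tested. At 10 days 5 of 5 were called higher, against 33.3% of all genes, and all 5 had every library above every unoperated one, against 31.2%. At 30 days both counts were again 5 of 5, against 33.7% called higher and 31.1% without overlap. At 60 days 4 of 5 were called higher, against 29.9%, and Chrna1, Chrne and Chrng did not overlap, 3 of 5 against 24.0%. The members' median log2 fold change was 4.80, 3.96 and 1.21 in time order, and that of all genes 0.061, 0.046 and 0.040. Between injured groups 1 of 5 was lower at 30 than at 10 days (24.3% of all genes), 4 of 5 were lower at 60 than at 30 days (12.4%) and 4 of 5 at 60 than at 10 days (31.9%). In the joint test of the 4 groups 5 of 5 passed, as did 84.7% of all genes, with edgeR adjusted p-values from 1.02e-09 for Chrnd to 5.08e-05 for Chrne. Comparisons against 0 days share the unoperated libraries.

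The balance of fetal to adult subunit was followed as Chrng fragments per Chrne fragment within each library, a quantity that library scaling does not touch. As the genes differ in length it is not a ratio of molecules, but its change between groups can be read. The ratio was 0.0456, 0.0411, 0.0338 and 0.0549 at 0 days and 2.29, 2.06, 2.61 and 2.33 at 10 days. It was 3.53, 1.19, 1.44 and 2.62 at 30 days and 0.179, 0.0706, 0.0641 and 0.131 at 60 days. Fragments of the fetal subunit were thus far fewer than those of the adult one in every unoperated library and outnumbered them in every library of 10 and 30 days. At 60 days the ratio was low again, with all 4 libraries still above the unoperated range.

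The log2 ratio rose by 5.71 at 10 days and 5.50 at 30 days, and stood 1.21 above 0 days at 60 days, a 2.31-fold difference. It dropped by 4.29 from 30 to 60 days and dropped by 4.50 from 10 to 60 days. Each of these had a two-sided exact permutation p of 0.0286, the smallest that 4 against 4 libraries allow, and an adjusted p of 0.0381 over the 60 subunit ratio tests. Between 10 and 30 days the difference was -0.22 (exact permutation p 0.571, adjusted p 0.602). At 60 days the difference from 0 days missed the threshold when any 1 of the 4 unoperated libraries was left out. It was then 1.09 to 1.32, with adjusted exact permutation p-values of 0.0745 to 0.107. When any 1 library of 60 days was left out it passed, at 0.94 to 1.43 with adjusted exact permutation p-values of 0.0365 to 0.0399.

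**Figure D3:**
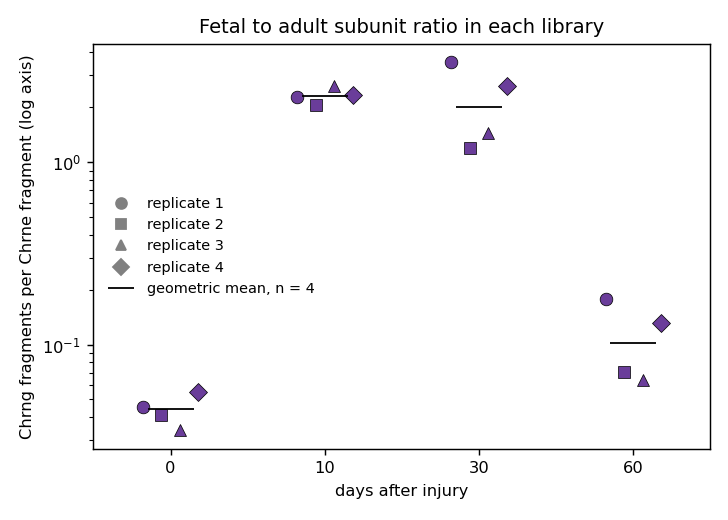
Chrng fragments per Chrne fragment in each library on a log axis, against days after injury (0 is unoperated), with geometric means of 4 libraries as lines. Libraries of 10 and 30 days lie between 1.19 and 3.53, those of 60 days between 0.0641 and 0.179, and those of 0 days between 0.0338 and 0.0549.

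Ratios between the other subunits were compared between groups in the same way. The 10 pairs are built from 5 genes, so they are not independent, and the share of other gene pairs that would pass was not computed. Of the 10 pairs 9 passed at 10 days, 9 at 30 days and 6 at 60 days. These were exact permutation tests against 0 days, adjusted over the 60 tests. Each pass had the smallest p that 4 against 4 libraries allow. At 10 and 30 days the exception was Chrnb1 to Chrne, whose log2 ratio differed from 0 days by 0.28 and -0.17 (adjusted exact permutation p 0.202 and 0.388). The alpha to beta ratio, for subunits found in both receptor forms, was 0.235 ± 0.0307 (SD, n = 4), 4.84 ± 0.307, 3.41 ± 0.616 and 0.502 ± 0.150 fragments per fragment in time order from 0 to 60 days. Fragments of Chrna1 thus went from fewer than those of Chrnb1 to several times more, and back to fewer. Gamma also rose beyond its neighbour delta: Chrng per Chrnd fragment was 0.0365 ± 0.00695, 0.176 ± 0.0171, 0.390 ± 0.150 and 0.157 ± 0.0484 in the same order. The 4 pairs that did not pass at 60 days were Chrna1 to Chrne, Chrnb1 to Chrnd, Chrnb1 to Chrne and Chrnd to Chrne, with differences of 0.32, 0.11, -0.73 and -0.84 and adjusted exact permutation p-values of 0.697, 0.490, 0.0714 and 0.0714.

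Within the injured groups, libraries tended to stand in a like order for several subunits. At 0 days the order was mixed: replicate 4 was the lowest for Chrna1, Chrnd and Chrne but the highest for Chrng. At 30 days replicate 1 was the highest library for all 5 and replicate 3 the lowest for 4, the exception being Chrnd, lowest in replicate 2. Replicate 1 was also the only 30-day library whose title ends in R. The only libraries of 10 and 60 days whose titles end in L were replicate 1 of 10 days, the lowest for all 5, and replicate 4 of 60 days, the highest for Chrng and neither highest nor lowest for the other 4. At 10 days replicate 2 was the highest and replicate 1 the lowest for all 5, and at 60 days replicate 3 was the lowest for 4, the exception being Chrne. Chrne was lowest in replicate 1 of 60 days, which was the highest for Chrna1 and Chrnb1. In log2 units the distance of 30-day replicate 1 from its group's mean was 1.39 for Chrng, 0.79 for Chrnd, 0.60 for Chrna1, 0.57 for Chrne and 0.38 for Chrnb1. These orders are a description and were not tested.

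**Figure D4:**
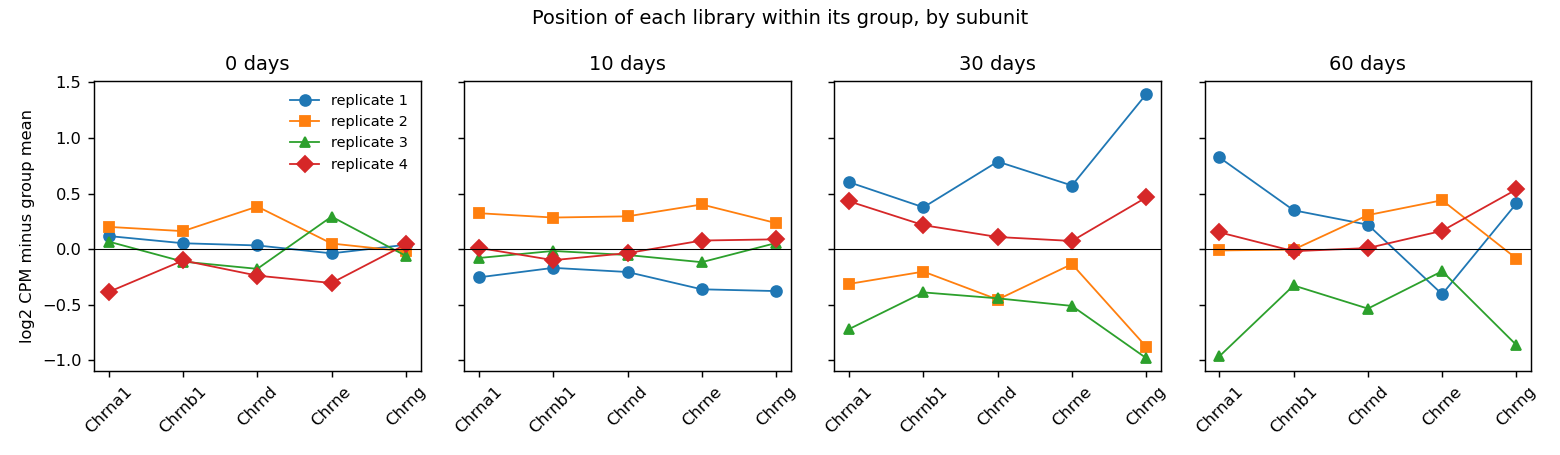
Distance of each library from its group's mean log2 CPM for the 5 subunits. Each point is 1 subunit in 1 library, and a line joins the points of 1 library. At 30 days replicate 1 is above 0 for all 5, up to 1.39 for Chrng, and at 10 days replicate 1 is below 0 for all 5.

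Genes whose log2 CPM followed each member most closely over the 16 libraries were taken from 8224 genes with a mean of at least 5 CPM. These Pearson coefficients are descriptions, as the points share the same libraries and the same group differences. For Chrng they were Dclk1 (r = 0.996), a doublecortin-like kinase, Scd1 (0.990), a fatty acid desaturase, and Lgals1 (0.989), a galectin. Chrna1 was followed by the tachykinin gene Tac4 (0.992) and the transcription factor gene Runx1 (0.988). The closest to Chrnd were the nucleoside transporter gene Slc29a1 (0.994), Akip1 (0.984) and Spg21 (0.983), and to Chrnb1 Tac4 (0.988), Chrna1 (0.987) and Pik3r4 (0.986). The adult subunit kept other company, with the chaperonin gene Cct8 (0.961), Zfp202 (0.953) and the splicing factor gene Bcas2 (0.951). Coefficients among Chrna1, Chrnb1, Chrnd and Chrng were 0.959 to 0.988, and those of Chrne with these 4 were 0.694 to 0.830. Dclk1 averaged 5.23, 475, 690 and 26.2 CPM at 0, 10, 30 and 60 days.

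Genes that act with the receptor moved in different directions, and for several of them the direction or the call depended on the scaling. Of all genes tested 33.3%, 33.7% and 29.9% were called higher at 10, 30 and 60 days, the shares to set beside this and the following lists. These shares come from the TMM fit, and shares with library totals were not computed. That scaling raised the log2 median over all genes by 0.66, 0.49 and 0.41 at 10, 30 and 60 days. Counts with library totals therefore have no share to be read against. The share called lower against 0 days was not computed either, so the counts called lower also have none. Of 8 genes of receptor clustering, 4 were higher and 1 lower at 10 days, 4 and 3 at 30 days, and 3 and 2 at 60 days, with medians of 0.081, 0.31 and -0.078. Musk, the receptor kinase that organises the endplate, rose by 3.20, 3.21 and 0.86 on the log2 scale at 10, 30 and 60 days, and Lrp4, the agrin receptor that activates it, by 1.50, 1.28 and 0.97. Rapsn, which encodes the clustering protein rapsyn, rose by 0.47 and 0.31 at 10 and 30 days, and at 60 days its value was -0.29 with TMM and 0.12 with library totals, called with neither. Dok7, the intracellular activator of MuSK, fell by 0.98 and 0.55 at 10 and 30 days, calls that were lost with library totals (-0.32 and -0.068), and at 60 days its value was -0.087 with TMM and 0.31 with library totals, called with neither. The values of Agrn, Crk and Crkl at 10 days and Dvl1 at 60 days also changed sign with library totals. Agrn (0.40), Crkl (0.51) and Dvl1 (0.34) were then called higher, and Crk (0.32) was not called. Agrn at 30 days was also called only with library totals, at 0.80. With that scaling 0 clustering genes were called lower at 10 days. Crk and Crkl were called lower at 30 and 60 days with both scalings. Crk had -0.99 and -1.26 with TMM, and -0.50 and -0.86 with library totals. Crkl had -0.90 at both times with TMM, and -0.40 and -0.50 with library totals.

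Of 13 listed regulators of subunit transcription 11 were in the table, and Dach2 and Mef2c were not analysed here. At 10 and 30 days 8 of 11 were higher and 1 lower, and at 60 days 6 were higher and 1 lower, with medians of 1.55, 1.19 and 0.34. Myog, the gene of myogenin, averaged 23.7, 485, 411 and 111 CPM in time order, and rose by 4.35, 4.11 and 2.22 on the log2 scale. Myod1 rose by 1.74 and 1.58 at 10 and 30 days and had 0.16 at 60 days, not called. Erbb2, a neuregulin receptor, rose by 3.59, 4.25 and 2.63, and Hdac4, a deacetylase induced by denervation that acts upstream of myogenin, by 2.98 and 1.19 at 10 and 30 days with 0.33 at 60 days, not called. With library totals the 60-day value of Hdac4 was 0.73 and was called (edgeR adjusted p 0.0039), as were those of Myf6 at 0.55 and Gabpa at 0.47, so that 9 of 11 were higher. Hdac9 was the lower one at each time, at -1.15, -1.21 and -0.58, the last not called with library totals (-0.17). Etv5, the Ets factor of synaptic nuclei, had -0.090 at 10 days and -0.11 at 30 days, neither called. With library totals these turned to calls of 0.57 and 0.39. At 60 days Etv5 was called higher with both scalings, at 0.34 with TMM and 0.75 with library totals. Nrg1 had 0.29 and 0.39 at 10 and 30 days, neither called, and 0.94 and 0.89 with library totals, both called. More than 8 of 11 were thus higher at 10 and 30 days with library totals.

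Of the 4 genes of acetylcholine breakdown, Ache, the acetylcholinesterase gene, fell by 3.52, 1.34 and 0.73 on the log2 scale, from 105 CPM at 0 days to 9.12, 41.3 and 62.9 CPM, the 60-day call being lost with library totals (-0.32). Prima1, the membrane anchor of the enzyme, fell by 1.43 at 10 days, where the call was lost with library totals (-0.76), and by 1.64 at 60 days. Over the 4 genes 0 were higher and 2 lower at 10 days, 0 and 1 at 30 days, and 2 and 2 at 60 days, when Colq and Bche were higher, with medians of -0.72, -0.52 and -0.030. With library totals 1 gene was called higher at 10 days, Colq, whose value changed sign from -0.011 to 0.65, and 1 at 30 days, Bche, at 1.18.

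Among assembly and folding genes 5 of 6 were in the table (Tmem35a was not analysed here), and 2 were higher and 1 lower at 10 days, 4 and 1 at 30 days, and 1 and 1 at 60 days, with medians of 0.045, 0.21 and 0.025. With library totals 4 were higher and 0 lower at both 10 and 60 days, and the share of all genes called with that scaling was not computed. Pdia3, a protein disulfide isomerase, rose by 0.64, 0.89 and 0.79, and Ric3, a receptor chaperone, fell by 0.70, 1.06 and 0.68, of which the 10-day and 60-day calls were lost with library totals. The values of Hspa5 at 10 days (-0.18) and Canx at 60 days (-0.069) changed sign with library totals and were then called, at 0.48 and 0.34.

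Of the 11 other nicotinic receptor genes, which encode neuronal subunits, 2 had enough fragments to be tested. Chrna4 had 3 to 6 fragments per library at 0 days and 24 to 35 at 10 days, a log2 change of 2.13 (edgeR adjusted p 0.000312). Chrnb2 had 1 to 3 fragments at 0 days, 9 to 21 at 10 days and 6 to 28 at 30 days, with called log2 changes of 2.31 and 2.64. At 60 days neither was called, and the value of Chrna4 turned from -0.19 to 0.21 with library totals.

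**Figure D5:**
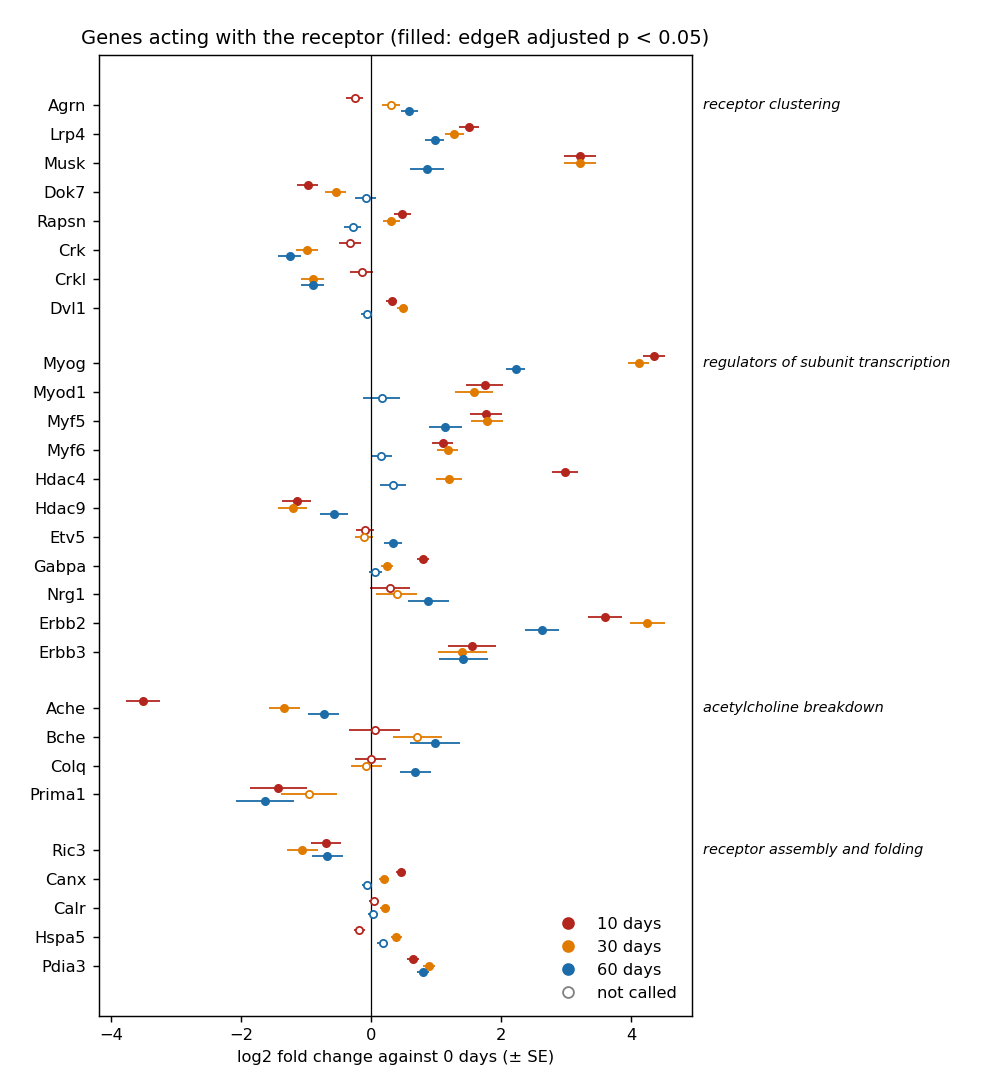
Log2 fold changes against 0 days of the genes listed with the receptor, at 10, 30 and 60 days, in TMM-scaled libraries. Bars are standard errors and filled points had an edgeR adjusted p under 0.05. Myog reaches 4.35 and Ache -3.52 at 10 days.

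Markers of other cell types also differed between the groups. The share of all genes called higher was 33.3%, 33.7% and 29.9% at 10, 30 and 60 days. The share called lower was not computed, so the counts called lower have none to be read against. The summed level of 7 Schwann cell markers was 56.7 to 90.7, 20.2 to 38.8, 48.8 to 78.0 and 97.2 to 212 CPM in time order, and 4 were lower at 10 days, 2 higher and 1 lower at 30 days, and 4 higher at 60 days. Of 5 macrophage markers 4, 5 and 5 were higher at 10, 30 and 60 days, with sums of 13.7 to 27.1, 47.5 to 66.7, 69.8 to 88.2 and 55.2 to 98.2 CPM from 0 to 60 days. Of 5 fibroblast markers 4, 5 and 5 were higher, with sums of 429 to 929, 820 to 2405, 1331 to 2145 and 1221 to 2599 CPM. Of 4 adipocyte markers 0, 0 and 4 were higher, with sums of 14.5 to 70.5, 25.8 to 48.4, 33.5 to 58.7 and 84.3 to 184 CPM. Of 4 endothelial markers 4 were lower at 10 days, 2 lower at 30 days, and 1 higher and 1 lower at 60 days, with sums of 197 to 240, 105 to 166, 154 to 178 and 171 to 264 CPM. Of 3 satellite cell markers 1 was called, higher at 60 days, with sums of 35.4 to 85.3, 62.8 to 84.3, 55.0 to 91.9 and 41.3 to 69.4 CPM. These sums are mostly Sdc4, which averaged 54.1 CPM of a mean sum of 56.4 CPM at 0 days. Pax7 averaged 1.08, 0.956, 0.576 and 1.23 CPM in time order. No measured marker was at 0 in every library. The part of these cell types in the subunit changes was not tested.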

How the data were processed

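Polyadenylated RNA of 16 libraries was read from 1 table in which the authors deposited expected counts, fragments per gene and library without scaling. Per the labels, a miRNeasy kit gave the RNA and a TruSeq mRNA kit the libraries. The submitters' processing notes name bcl2fastq 1.8.4, FastQC, TopHat2 2.0.9, Bowtie2 2.1.0.0, Cufflinks, Cuffdiff 2.1.1 and rn5, without roles. The annotation, strandedness and filters are not given in the sources used here. Fractional values, present in 233 of 17147 genes and in 0 members, were rounded. Totals were 17.2 to 39.9 M fragments (M, mega).

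Groups came from the time in each label. Replicate numbers follow accession order, and the labels pair no libraries across groups. filterByExpr by group left 11658 genes, which entered 1 edgeR quasi-likelihood model over the 4 groups (TMM factors, robust, no covariate). Each of the 6 pairs of groups was tested, with a joint F test, Benjamini-Hochberg adjustment over all genes tested and a threshold of 0.05. SE is the log2 fold change divided by the square root of F. Subunit ratios used 0.5 added to each count and two-sided exact permutation tests, adjusted over 60 tests.

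Named genes are the 5 members, the 3 most correlated genes of each (log2 CPM, prior count 2, mean of at least 5 CPM, no accession or LOC names), the members of the gene lists and markers of 7 cell types. Neighbouring genes were named in addition. Members and lists were chosen with earlier results of these data known. Alternatives were RLE, upper-quartile and total scaling, no filter, fits of 2 groups alone, a replicate block, the title letter, limma-voom, DESeq2, leaving out each library and, for ratios, 0 or 5 added. Promoters and gene order came from RefSeq GRCr8, and 14500 symbols matched it. Levels per length were not computed, and 1 gene and the list it belonged to are not reported here. The fit was also run on simulated data in which few genes differed, unlike these data, so that run does not test the scaling. Its outcome is not given here. The fits used edgeR 4.0.16 with limma 3.58.1 and DESeq2 1.42.0 as alternatives (R 4.3.3), and the ratios python 3.11.15.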

Additional observations from a re-analysis of the deposited data

Results flagged for a closer look

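Changes of 4 subunits against 0 days differed between times, by the edgeR test of the later against the earlier injured group. For Chrna1 the log2 difference was -3.85 for 60 against 30 days and -4.38 for 60 against 10 days. For Chrnb1 it was -1.10 and -1.17 in the same order. Chrnd differed by -0.83 for 30 against 10 days, -3.60 for 60 against 30 days and -4.43 for 60 against 10 days. Chrng differed by -5.05 and -4.57 for 60 against 30 and 60 against 10 days. In a check for a single library far from the other 3, none stood out in the 24 groups of 4 examined, which are the 5 subunits and the gamma to epsilon ratio at each time.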

How the results depend on the processing

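Of 750 alternative values of the subunit fold changes, 744 kept their direction, where called, and their side of the threshold, 2 lost it and 4 gained it. Many of these fits left out a library of neither compared group and could hardly move the value, so the 744 overstate how firm the values are. The Chrnb1 change at 60 days was 0.34 to 0.57 with 1 library left out, lost without replicate 1 of 60 days (adjusted p 0.0806). The Chrng change at 60 days was 2.44 with limma-voom (adjusted p 0.0769), against 2.04e-06 to 0.0769 over its alternatives. The Chrnd change at 60 days was 0.77 with library totals (adjusted p 0.0242, against 0.0242 to 0.447 over its alternatives). Chrne gave 0.56 for 30 against 10 days and -0.68 for 60 against 30 days with the title letter, and the latter ran from -0.71 to -0.32 with 1 library left out.

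Over all genes, 60 against 30 days gave 1530 calls when the 2 groups were fitted alone and 2636 in the shared fit. With library totals the clustering genes called lower at 10 days numbered 0, and the regulators called lower at 60 days 0. For acetylcholine breakdown 1 was higher and 1 lower at 10 days, 1 higher at 30 days and 1 lower at 60 days. For assembly and folding 4 were higher and 0 lower at both 10 and 60 days. The share of all genes called higher or lower with library totals was not computed, so these counts have none beside them.

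The gamma to epsilon log2 ratio at 60 against 0 days was 0.94 to 1.43 with 1 library left out. With the replicate block, an exact sign-flip test whose smallest p is 0.125, the ratio differences were 5.71, 5.50 and 1.21 at 10, 30 and 60 days, -4.29 for 60 against 30 days and -4.50 for 60 against 10 days, none passing (adjusted p 0.153), as that test cannot reach the threshold. The Chrna1 to Chrng difference at 60 days was -0.68 with 5 added to each count (adjusted exact permutation p 0.0714). The replicate block in the edgeR fits changed no call of a subunit. Libraries that share a column suffix in different groups had a mean correlation of 0.0013 (-0.24 to 0.22 over 24 pairs), and 16 of 48 best matches had the same suffix. The labels do not say whether a shared suffix means anything, and with 4 libraries in a group this check cannot decide it. The causes of these differences between settings were not tested. No 2 libraries of a group agreed within sampling noise (chi-square per gene 13.3 to 102 over 24 pairs). Depth limits what can be read of the other nicotinic subunits, of which 9 of 11 had too few fragments to be tested.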

Other observations

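Beside the members, Fgf11, the gene next to Chrnb1 in the RefSeq annotation, averaged 0.633, 3.55, 2.63 and 1.13 CPM in time order, with log2 changes of 2.47, 2.04 and 0.85 against 0 days (edgeR adjusted p 4.26e-06, 4.04e-05 and 0.0467). Chrna5, a neuronal subunit gene with too few fragments to be tested, had 0 to 2 fragments per library at 0 days and 5 to 12 in the injured libraries. Runx1, which followed Chrna1 closely, averaged 4.04, 143, 77.1 and 13.3 CPM at 0, 10, 30 and 60 days. Slc29a1, the closest to Chrnd, averaged 45.6, 468, 339 and 53.2 CPM.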
